A study of Mus musculus with 30 samples.

Results

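Livers of 12-month-old mice carrying an A1cf transgene (strain A1cf_Tg/+ in the labels, called Tg-labelled here) were compared with livers of age-matched wild-type C57BL/6J mice, the control pools. Each RNA-seq library was made from oligo(dT)-selected RNA of a pool of 3 to 4 mice, and the value compared was the read count per gene. The comparison used 7 of the 30 libraries in the series, namely 4 Tg-labelled pools (1 to 4) and 3 of the 4 control pools (1, 3 and 4). Control pool 2 was left out for its muscle RNA: it held 778 CPM (counts scaled to a common library total) of the skeletal muscle actin Acta1, against a limit of 500 CPM and at most 0.969 CPM in the 7 pools used. Per the strain label the mice are heterozygous for the transgene, and its promoter, founder line and the sex of the mice are not given in the sources used here. P-values measure the spread between these pools, and mice within a pool cannot be told apart. In whole liver, fewer cells of a type and less RNA per cell cannot be told apart either.

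A1cf encodes APOBEC1 complementation factor, an RNA-binding protein of hepatocytes and enterocytes. With the cytidine deaminase APOBEC1 it edits 1 cytidine of the apolipoprotein B messenger RNA, which creates a stop codon and so the short form of the protein, apoB48. Hepatocytes carry most of the liver's RNA. Kupffer cells (the resident macrophages), endothelial cells, stellate cells (which deposit collagen) and bile duct cells make up the rest.

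The 7 libraries held 17044839 to 20711360 counts, and 14315 genes passed the filter on low counts. Levels are CPM scaled by TMM, edgeR's normalisation for library composition. Mitochondrial genes took 5.52% to 8.21% of counts in Tg-labelled pools and 5.67% to 6.14% in control pools. The hepatocyte markers were present in every pool, with albumin (Alb) at 40780 to 51223 CPM in Tg-labelled pools and 77734 to 85128 CPM in control pools. The Tg-labelled pools differed more among themselves than the control pools did. On the first principal component of log2 levels (the axis of largest variance, 52.4% of it), Tg-labelled pools ran from -49.6 to -3.31. Control pools ran from 28.6 to 30.9. The counts that follow measure distance from the control mean, which for Tg-labelled pools includes the difference between groups. Among the 11699 genes that averaged 2 CPM or more over the 7 pools, those at least 2-fold above the control mean numbered 418, 327, 940 and 558 in Tg-labelled pools 1 to 4. Those at least 2-fold below it numbered 141, 117, 302 and 207. Each control pool, set against the mean of the other two, had 71 to 131 genes above and 51 to 138 below. Pool 3 thus stood farthest from the controls, followed by pool 4.

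A1cf itself (ENSMUSG00000052595, GRCm38 chromosome 19, 31868761 to 31949406) was lower in the Tg-labelled pools. It was at 166, 152, 143 and 161 CPM in Tg-labelled pools 1 to 4 and at 291, 237 and 233 CPM in control pools 1, 3 and 4, so the groups did not overlap. The fitted change was -0.71 ± 0.12 (log2, SE, adjusted p = 0.0325 by the edgeR quasi-likelihood test used throughout). Reads counted on the gene model go against the label, so every direction below is that of pools labelled Tg. Which parts of the gene the transgene carries, and from which species, is not given in the sources used here. Leaving out control pool 1, 3 or 4 gave adjusted p values of 0.110, 0.0992 and 0.113, and leaving out Tg-labelled pool 3 or 4 gave 0.0576 and 0.0682.

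Among 10 factors of apoB messenger RNA editing, 1 rose and 1 fell. Apobec1, the deaminase, was at 21.7, 13.8, 21.7 and 20.2 CPM in Tg-labelled pools and at 11.01, 10.12 and 9.69 CPM in control pools, a rise of 0.91 ± 0.18 (log2, adjusted p = 0.0396). Pool 2 had the smallest difference, still above every control. Rbm47, another RNA-binding cofactor of APOBEC1, was at 130 to 176 CPM in Tg-labelled and 200 to 223 CPM in control pools (log2 change -0.53 ± 0.14, adjusted p = 0.0702). Apob messenger RNA was at 12844 to 15364 CPM against 16150 to 18341 CPM (log2 change -0.27 ± 0.17, adjusted p = 0.380). Neither of these 2 passed the test, though neither overlapped. Editing itself was not read from these gene counts. The calls of A1cf and Apobec1 were lost without any of the 3 control pools or Tg-labelled pools 3 or 4.

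In all, 385 of 14315 genes were called at an adjusted p below 0.05 (2.69%), 296 higher (2.07%) and 89 lower (0.622%) in Tg-labelled pools, and 235 of the rises and 39 of the falls were at least 2-fold. The pools of the groups did not overlap for 1744 genes that were higher (12.2%) and 1250 that were lower (8.73%). The number of calls rested on every control pool: 21, 25 and 12 genes were called without control pool 1, 3 or 4. It fell to 211 without Tg-labelled pool 3 and to 105 without pool 4, and rose to 924 without pool 1 and 676 without pool 2. With control pool 2 added, 188 genes were called, of which 165 were among the 385.

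Calls of 9 genes stood in all 7 fits that left out 1 pool, and they are named here after their values were seen. Kyat3, a kynurenine aminotransferase (chromosome 3, 142701051 to 142744910), was at 21.1, 25.4, 38.9 and 26.1 CPM in Tg-labelled pools and at 163, 171 and 168 CPM in control pools. It fell by 2.58 ± 0.19 on the log2 scale (adjusted p = 0.00304), and its highest Tg-labelled pool lay far under its lowest control. Hsf2bp, a germline protein of meiotic recombination (chromosome 17, 31944769 to 32034508), was at 5.17, 4.12, 6.40 and 6.70 CPM against 0.298, 0.364 and 0.125 CPM, a rise of 4.38 ± 0.37. Its exons overlap those of Rrp1b on the other strand, and the strand setting of the counts is not given, so reads of the pair cannot be told apart. Smpd3, a neutral sphingomyelinase, was at 34.8, 47.3, 55.2 and 48.02 CPM against 7.20, 8.67 and 7.38 CPM (log2 change 2.58 ± 0.18). Gpx3, the secreted glutathione peroxidase, was at 16.9 to 19.4 CPM against 5.12 to 6.44 CPM (1.63 ± 0.13). Ifi27l2b, an interferon-inducible gene, was at 29.3 to 51.5 CPM against 3.63 to 5.69 CPM (3.00 ± 0.25). The calpain protease Capn8 and Ttc39a also rose, by 2.43 ± 0.23 and 2.53 ± 0.26, as did the pseudogene Mrgprb11-ps, by 3.99 ± 0.37. Mkx, a homeobox gene of tendon, fell from 2.50 to 2.98 CPM in control pools to 0.0435 to 0.245 CPM in Tg-labelled pools (-4.58 ± 0.45).

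The 12 largest rises among the named genes included several that were nearly silent in control liver. Gldn (gliomedin), a Schwann cell protein of the nodes of Ranvier, was at 6.78, 10.6, 11.9 and 28.0 CPM in Tg-labelled pools and at 0.0595, 0 and 0.250 CPM in control pools (log2 change 7.05 ± 0.83, adjusted p = 0.0125). Ly6d, a surface protein of B-cell precursors and epithelia, was at 22.3, 8.43, 223 and 84.6 CPM against 0.833, 1.03 and 0.875 CPM, highest in pools 3 and 4 (6.53 ± 1.27, adjusted p = 0.0396). Igdcc4 rose by 6.76 ± 1.18, Dnah1 (an axonemal dynein) by 5.64 ± 0.98, Mas1 (the angiotensin 1-7 receptor) by 5.50 ± 1.11, Lrtm2 by 4.21 ± 0.65 and Chrm1 (a muscarinic receptor) by 4.03 ± 0.63. Aqp7, the glycerol channel of fat cells, had 346 reads in Tg-labelled pools and 1 read in the control pools, a ratio of 210 (95% exact counting interval 37.4 to 8302). That interval is of summed reads and leaves out the spread between pools. The fitted change of Aqp7 was 7.22 ± 1.54 (adjusted p = 0.0427). With 1 pool left out, the gene passed the filter on low counts in 4 fits and was called in 1 of them. Its levels ran from 0.445 CPM in pool 1 to 9.09 CPM in pool 3. Rprl3, a copy of the RNase P RNA, and Mup-ps20, a pseudogene of the major urinary proteins, also rank among the largest rises at 8.04 ± 0.98 and 7.02 ± 1.41. Both belong to families of near-identical copies, so the share of reads given to each is uncertain.

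Falls were fewer and mostly smaller. Sema3e, a secreted guidance factor, was at 0.0556, 1.76, 0.0435 and 0.300 CPM in Tg-labelled pools against 12.6, 8.18 and 13.5 CPM in control pools (log2 change -4.38 ± 0.83, adjusted p = 0.0381). Slc17a8, a vesicular glutamate transporter, was at 11.9 to 35.8 CPM against 64.4 to 95.1 CPM (-2.09 ± 0.37). Col27a1, a fibrillar collagen, was at 27.7, 33.3, 37.9 and 30.4 CPM against 116, 73.1 and 85.6 CPM (-1.50 ± 0.17, adjusted p = 0.0125). Serpine2, an inhibitor of thrombin and plasmin, was at 6.00 to 9.70 CPM against 18.7 to 34.3 CPM (-1.74 ± 0.23). Dmrta1, Jph1 and Ppp1r3e fell by 2.40, 1.61 and 1.53 on the log2 scale. Of the 67 genes chosen by the naming rule and called, 5, 7 and 2 stayed called without control pool 1, 3 or 4, and 28 without Tg-labelled pool 4. The plot of called genes by pool shows both groups for 20 of them.

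**Figure D1:**
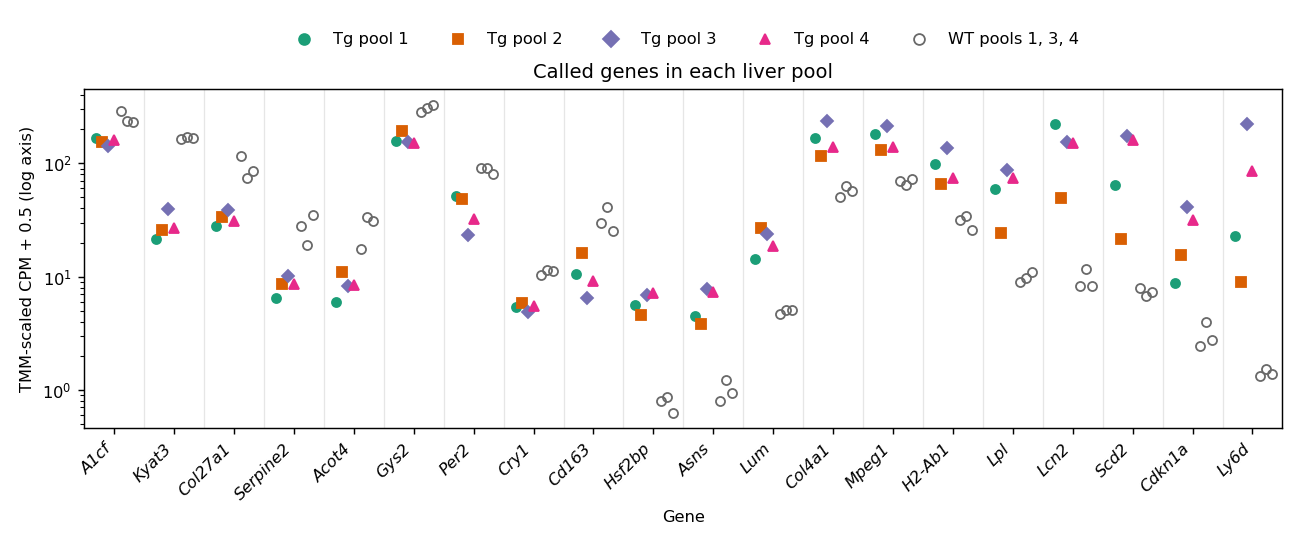
Levels of 20 called genes in each liver pool, as TMM-scaled CPM plus 0.5 on a log axis. Filled symbols are the 4 Tg-labelled pools and open circles the 3 control pools; no gene overlaps between groups, and the Tg-labelled pools are spread widely for Ly6d (8.43 to 223 CPM) and narrowly for Cry1 (4.35 to 5.39 CPM).

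Of 23 Kupffer cell and macrophage markers tested, 9 rose and 1 fell. Their median log2 change was 1.18, beside -0.01 over all genes tested. Mpeg1, a pore-forming protein of phagocytes, was at 181, 132, 215 and 138 CPM against 68.8, 64.1 and 71.8 CPM (1.29 ± 0.19, adjusted p = 0.0210). The Kupffer cell protein Cd5l was at 108, 144, 115 and 103 CPM against 67.8, 64.4 and 66.2 CPM (0.83 ± 0.13). C1qb and C1qc, chains of complement C1q, rose by 1.18 ± 0.20 and 0.93 ± 0.17. Csf1r, the receptor of the macrophage growth factor, rose by 0.81 ± 0.15, and Vsig4, the complement receptor of Kupffer cells, by 0.96 ± 0.20. Cx3cr1 and Ccr2, chemokine receptors of monocyte-derived cells, rose by 2.20 ± 0.38 and 1.24 ± 0.22, and the Fc receptor Fcgr1 by 1.50 ± 0.29. Cd163, the scavenger receptor for haemoglobin, moved the other way: it was at 10.1, 15.6, 5.92 and 8.70 CPM against 29.5, 40.9 and 25.0 CPM (-1.66 ± 0.30, adjusted p = 0.0364). Of the 23 markers, 2 had a change below 0, Cd163 among them, and 21 a change above 0. Summed over the list, levels were 684 to 1164 CPM in Tg-labelled and 449 to 533 CPM in control pools. Of the 10 calls, 0 stood without control pool 1, 3 or 4, and 4 without Tg-labelled pool 3. With control pool 2 added, 3 stood.

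Of 17 antigen presentation genes 5 were called, all of the class II pathway and all higher, and the list median was 0.89. H2-Ab1, a class II beta chain, was at 98.6, 64.6, 136 and 74.5 CPM against 31.1, 33.5 and 25.3 CPM (1.64 ± 0.26, adjusted p = 0.0261). H2-Eb1, H2-Aa, Cd74 (the class II invariant chain) and H2-DMa (a peptide loader) rose by 1.55 ± 0.25, 1.28 ± 0.22, 1.70 ± 0.33 and 1.49 ± 0.30. Pool 3 was highest for each of these 5. The class I gene H2-K1 was at 948 to 1039 CPM against 707 to 897 CPM and did not pass (0.30 ± 0.13, adjusted p = 0.217). H2 genes resemble each other, so reads may be split among them. Without any 1 of the control pools none of the 5 calls stood.

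Few markers of other leukocytes were called. Cd4 was the 1 called of 7 tested T and NK cell markers, at 8.17, 5.98, 6.27 and 3.35 CPM against 1.55, 1.21 and 1.44 CPM (2.08 ± 0.32), and it is also carried by some macrophages. The T and NK list summed to 12.8 to 18.2 CPM against 8.82 to 9.10 CPM. None of 4 tested neutrophil markers and none of 8 B and plasma cell markers were called, with medians of 1.52 and 0.51. Their sums did not overlap between groups, at 8.62 to 29.1 CPM against 4.50 to 6.67 CPM for the neutrophil list and 55.3 to 235 CPM against 27.2 to 41.9 CPM for the B and plasma cell list. Gene by gene, all Tg-labelled pools lay above every control in 3 of 4 and 2 of 8, where 12.2% of all genes did. The B and plasma cell median was -0.14 in Tg-labelled pool 1, below that of control pool 1 (0.34). Igkc, the immunoglobulin kappa constant region, was at 43.4, 17.9, 95.2 and 39.3 CPM against 11.4, 9.22 and 10.6 CPM and did not pass (adjusted p = 0.0522). Ccl6, a macrophage chemokine, and Cxcl14 rose by 1.69 ± 0.26 and 2.89 ± 0.49, the 2 called of 15 chemokines and cytokines. That list had a median of 0.84, and in 5 of the 15 all Tg-labelled pools lay above every control. Of 25 interferon-stimulated genes 1 was called, with a list median of 0.81. In 9 of the 25 all Tg-labelled pools lay above every control. The interferon list summed to 571 to 921 CPM against 401 to 596 CPM, so the sums overlapped. The called gene was Ifi27l2a (1.46 ± 0.31, adjusted p = 0.0490). It neighbours Ifi27l2b and Ifi27 on chromosome 12, and Ifi27, which was in no list, rose as well, by 1.37 ± 0.20. None of the 4 calls from these lists stood without control pool 1, 3 or 4.

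Among 27 stellate cell and fibrosis genes, 10 rose and none fell, with a median of 0.94. In 20 of the 27 all 4 Tg-labelled pools lay above every control, where 12.2% of all genes did. Lum (lumican, a collagen-binding proteoglycan) was at 13.7, 26.3, 23.1 and 18.1 CPM against 4.17, 4.61 and 4.56 CPM (2.19 ± 0.23, adjusted p = 0.00834). Col4a1, a basement membrane collagen, was at 166, 116, 235 and 139 CPM against 50.3, 62.9 and 56.9 CPM (1.53 ± 0.24). Col4a2, its partner, rose by 1.66 ± 0.19; the 2 genes lie head to head with overlapping exons on opposite strands. The fibrillar collagens Col1a2, Col3a1 and Col5a2 rose by 1.73 ± 0.30, 1.43 ± 0.30 and 1.71 ± 0.27, and Col6a3 by 1.17 ± 0.18. Pdgfrb, the growth factor receptor of stellate cells, was at 47.0, 34.8, 38.4 and 33.7 CPM against 19.5, 22.5 and 18.4 CPM (0.93 ± 0.15). Mmp2 and Loxl1, a matrix protease and a collagen cross-linker, were the other called members. Col1a1 was at 24.5 to 85.9 CPM against 9.07 to 10.2 CPM, with pool 3 highest, and did not pass (2.08 ± 0.46, adjusted p = 0.0542). Of the 10 calls, 0, 1 and 0 stood without control pool 1, 3 or 4, and 5 with control pool 2 added.

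Endothelial, bile duct and hepatocyte markers gave few calls. Vwf was the 1 called of 18 liver endothelial markers (0.79 ± 0.16, adjusted p = 0.0412), that list had a median of 0.09, and the call was lost without control pool 1, 3 or 4. None of 12 cholangiocyte and progenitor markers was called, and their per-pool medians were 0.05, 0.09, 1.42 and 0.37, highest in pool 3, against -0.14 to 0.11 in control pools. The list summed to 114 to 200 CPM against 96.9 to 109 CPM, and in pool 4 it reached 186 CPM. None of 20 hepatocyte markers was called, with a median of -0.27. Alb was nevertheless lower in every Tg-labelled pool (-0.88 ± 0.20, adjusted p = 0.0571). The summed hepatocyte list was 73372 to 98424 CPM in Tg-labelled and 117633 to 127007 CPM in control pools. Alb, at the levels given above, is a large part of this sum. In 6 of the 20 genes all Tg-labelled pools lay below every control, where 8.73% of all genes did. Between groups, the sum was lower where the macrophage and collagen lists above were higher. Among Tg-labelled pools, pool 3 had the lowest hepatocyte sum and the highest macrophage sum (73372 and 1164 CPM). Pool 4, however, joined a hepatocyte sum of 76634 CPM to the lowest macrophage sum, 684 CPM. The part of the hepatocyte sum in the changes of those lists was not tested. Of 6 tested adipocyte markers, Cfd (complement factor D) alone rose, from 0.238 to 1.64 CPM in control pools to 2.74 to 27.1 CPM (4.25 ± 0.90, adjusted p = 0.0473), and the call was lost without any 1 control pool. The list's medians were 0.69, 1.53, 1.52 and 1.67 in Tg-labelled pools 1 to 4 and -0.40, 0.57 and 0.01 in control pools, and its sum was 86.2 to 148 CPM against 43.2 to 70.3 CPM. Cidec, a lipid droplet protein also made by fatty hepatocytes, was at 20.9 to 50.6 CPM against 3.93 to 16.4 CPM and did not pass (adjusted p = 0.0663). Lep was at 0 in all 7 pools and Adipoq at no more than 0.0870 CPM.

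Of 29 cell cycle genes, 3 were called, all higher (median 1.07). In 18 of the 29 all 4 Tg-labelled pools lay above every control, where 12.2% of all genes did. Mcm6, a subunit of the replicative helicase, was at 10.8, 8.48, 15.3 and 12.4 CPM against 5.89, 4.97 and 4.13 CPM (1.23 ± 0.23, adjusted p = 0.0374). Mcm2, of the same complex, rose by 1.07 ± 0.18 and the proliferation marker Mki67 by 1.91 ± 0.41. The median over the list was 0.45 and 0.51 in pools 1 and 2 and 1.21 and 1.17 in pools 3 and 4. Of 19 p53 targets, 3 rose. Cdkn1a, the p21 inhibitor of cyclin-dependent kinases, was at 8.34, 15.0, 40.7 and 31.3 CPM against 1.96, 3.52 and 2.25 CPM (3.21 ± 0.56, adjusted p = 0.0334). Eda2r, a receptor of the TNF receptor family, was at 4.25 to 5.88 CPM against 0.417 to 1.27 CPM (2.51 ± 0.35), and Phlda3, an inhibitor of AKT, rose by 3.08 ± 0.51. Mdm2, the p53 ubiquitin ligase, was at 31.7 to 35.3 CPM against 27.0 to 31.9 CPM and did not pass (0.17 ± 0.11). The 3 cell cycle calls were all lost without any 1 control pool or Tg-labelled pool 4. In contrast, 12 and 8 members were called higher without Tg-labelled pool 1 or 2, and 18 of 32 by DESeq2. Over all genes these fits called 624, 479 and 1044 higher. Of the p53 calls only that of Eda2r stood without control pool 3.

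Among 30 tested oncofetal and liver tumour genes, 4 rose and none fell (median 1.70). These were Scd2, Ly6d, Mki67 and the imprinted RNA Meg3, of which Mki67 is also in the cell cycle list. Scd2, a fatty acid desaturase, was at 63.9, 21.1, 173 and 161 CPM against 7.38, 6.18 and 6.82 CPM (3.95 ± 0.69). H19, an imprinted fetal RNA, was at 14.1, 5.88, 790 and 228 CPM against 0.119, 0.303 and 1.00 CPM. It missed the threshold (adjusted p = 0.0592), with pools 3 and 4 well above pools 1 and 2. The fetal protein Afp was at 3.92 to 8.53 CPM against 2.13 to 2.74 CPM (adjusted p = 0.0612). None of the 4 calls stood without any 1 control pool. Without Tg-labelled pool 4, 3 were lost and Meg3 did not pass the filter on low counts, while 9 members were called without pool 1 and 7 without pool 2. Over all genes, 624 and 479 were called higher without pool 1 or 2.

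Of 19 circadian clock genes 3 were called, all lower, and the list median was -0.77. Cry1, a repressor of the clock, was at 4.89, 5.39, 4.35 and 5.05 CPM against 9.82, 10.9 and 10.6 CPM (-1.09 ± 0.14, adjusted p = 0.0144). Per2, which acts with it, was at 50.9, 48.3, 22.8 and 31.7 CPM against 90.8, 91.1 and 79.7 CPM (-1.18 ± 0.25). Arntl (BMAL1), the activator these repressors act on, was at 2.95, 2.99, 5.48 and 9.003 CPM against 1.84, 1.58 and 0.750 CPM and did not pass (1.87 ± 0.49, adjusted p = 0.0735). The time of day at which livers were taken is not given in the sources used here. Without control pool 1, 3 or 4 none of the 3 calls stood.

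Promoter sequence of 4 of these genes is shown because each carries a known element of its pathway, as RefSeq gives it for GRCm38.p6. Each run is the 250 bases before the start, 5′ to 3′ on the gene's strand, and all 4 genes lie on the minus strand. Matches found on either strand are in capitals. For Cry1 the motif was CACGTG, the E-box bound by CLOCK and BMAL1, which reads the same on both strands and stood in 6.02% of 32851 RefSeq promoters of this length. For Mcm6 the motifs were TTTGGCGC and TTTCGCGC, forms of the E2F site, found in 0.417% and 0.256% of promoters. For Asns and Slc7a11, described next, the motif was TGATGNAA, the element bound by ATF4 with C/EBP proteins, found in 3.45%.
Cry1, chr10:85185055-85185304: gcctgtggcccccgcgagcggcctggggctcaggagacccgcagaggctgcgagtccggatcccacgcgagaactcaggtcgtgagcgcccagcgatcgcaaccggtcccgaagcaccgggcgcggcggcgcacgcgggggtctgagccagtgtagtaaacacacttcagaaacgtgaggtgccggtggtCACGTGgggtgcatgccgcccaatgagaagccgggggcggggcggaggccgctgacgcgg
Mcm6, chr1:128359706-128359955: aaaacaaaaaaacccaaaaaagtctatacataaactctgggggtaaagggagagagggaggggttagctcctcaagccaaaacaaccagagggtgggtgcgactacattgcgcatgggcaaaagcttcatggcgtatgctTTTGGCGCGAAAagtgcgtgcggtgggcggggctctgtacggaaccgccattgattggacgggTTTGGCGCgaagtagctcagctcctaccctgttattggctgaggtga
Asns, chr6:7693210-7693459: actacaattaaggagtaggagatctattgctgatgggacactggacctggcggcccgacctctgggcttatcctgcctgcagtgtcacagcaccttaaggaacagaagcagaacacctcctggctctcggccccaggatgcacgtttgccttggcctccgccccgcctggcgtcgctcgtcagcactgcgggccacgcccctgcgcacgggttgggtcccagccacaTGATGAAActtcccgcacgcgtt
Slc7a11, chr3:50443614-50443863: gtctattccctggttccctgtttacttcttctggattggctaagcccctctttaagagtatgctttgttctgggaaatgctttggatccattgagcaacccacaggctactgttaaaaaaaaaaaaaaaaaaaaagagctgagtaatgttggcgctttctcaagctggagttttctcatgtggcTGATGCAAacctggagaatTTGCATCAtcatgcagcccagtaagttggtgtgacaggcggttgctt
Slc7a11 held 2 matches, 1 on each strand, and Asns 1. In Mcm6 the first capitals are a TTTGGCGC and, on the other strand, a TTTCGCGC that overlaps it, and the second is a TTTGGCGC. These are matches of letters, and no binding was measured in the libraries compared here.

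Of 23 integrated stress response genes 1 was called. Asns, asparagine synthetase, was at 4.00, 3.33, 7.31 and 6.75 CPM against 0.298, 0.728 and 0.438 CPM (3.44 ± 0.43, adjusted p = 0.0136), and the call was lost without control pool 1 or 4. Slc7a11, the cystine importer, was at 1.39, 0.735, 148 and 6.75 CPM against 0.0595, 0.303 and 0.250 CPM. Every pool was above every control, by very unequal amounts, and the gene did not pass (adjusted p = 0.115). It is also 1 of 23 tested NRF2 and glutathione genes, of which none was called. The medians of that list were -0.01, 0.04, 0.97 and 0.42 in pools 1 to 4 and -0.13 to 0.11 in control pools, highest in pool 3. There the NADPH-dependent reductase Cbr3 was at 90.5 CPM, against at most 8.90 CPM in the other 6 pools, and the glutathione transferase Gstm3 at 746 CPM against at most 223 CPM.

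Of 30 PPARalpha targets and fatty acid oxidation genes, 1 rose and 3 fell. The falls were Acot1, Acot3 and Acot4, acyl-CoA thioesterases that lie side by side on chromosome 12 (84009502 to 84059565). Acot4 was at 5.50, 10.4, 7.74 and 8.003 CPM against 17.2, 33.3 and 30.8 CPM (-1.77 ± 0.27, adjusted p = 0.0232). Acot3 was at 0.611 to 4.21 CPM against 7.32, 42.6 and 38.1 CPM (-3.37 ± 0.66) and Acot1 at 2.22 to 4.02 CPM against 7.62 to 14.7 CPM (-1.84 ± 0.28). Control pool 1 was the lowest control for each, and reads of the 3 similar genes may be split among them. Ucp2, a mitochondrial carrier, was at 93.2, 119, 136 and 82.6 CPM against 35.4, 39.3 and 35.5 CPM (1.55 ± 0.18, adjusted p = 0.0125). Without control pool 1, 3 or 4, 2, 0 and 0 of these 4 calls stood.

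Of 23 genes of lipoprotein assembly and clearance, 3 rose. Lpl, lipoprotein lipase, was at 59.4, 23.8, 86.6 and 74.0 CPM against 8.39, 9.15 and 10.5 CPM (2.70 ± 0.40, adjusted p = 0.0223). Abcg1, a cholesterol exporter, rose by 1.11 ± 0.19 and Scarb1, the HDL receptor, by 0.57 ± 0.12. Scd2 was the 1 called of 24 genes of fatty acid and triglyceride synthesis, whose median was -0.31. None of 22 cholesterol synthesis genes was called with all 4 pools, or without control pool 1, 3 or 4. Without Tg-labelled pool 1, which had the highest median, 8 were called lower, as were 300 of 14107 genes in all. In 4 of the 22 genes all Tg-labelled pools lay below every control, where 8.73% of all genes did. The list's per-pool medians were 0.05, -0.88, -0.57 and -0.59, lower in pools 2 to 4 than in any control pool. Control medians were -0.14, 0.19 and -0.05. None of 20 lipid droplet genes, 13 exchangeable apolipoproteins or 20 bile acid genes was called, with medians of 0.07, -0.10 and -0.38. The bile acid receptor Nr1h4 (FXR) was at 89.4 to 119 CPM against 131 to 173 CPM (-0.61 ± 0.15, adjusted p = 0.0615). None of the 3 lipoprotein calls stood without any 1 control pool.

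Gys2, the liver glycogen synthase, was at 157, 194, 154 and 150 CPM against 281, 306 and 329 CPM (-0.90 ± 0.13, adjusted p = 0.0210). Hk2, a hexokinase scarcely expressed in normal hepatocytes, was at 6.22, 10.3, 14.4 and 17.2 CPM against 1.90, 2.55 and 3.81 CPM (2.13 ± 0.38). These were the 2 called of 29 genes of glycolysis, fructose use and gluconeogenesis. Pdk1, a kinase that inhibits pyruvate dehydrogenase, fell by 0.96 ± 0.19, and with Hk2 it was 1 of 2 called among 18 hypoxia response genes. Acmsd, which diverts the kynurenine pathway from NAD synthesis, was at 43.8, 28.9, 43.6 and 44.1 CPM against 17.9, 19.1 and 15.4 CPM (1.20 ± 0.17, adjusted p = 0.0210), the 1 called of 11 kynurenine pathway enzymes. Kyat3, described above, was not in that list. None of 18 urea cycle and ammonia enzymes was called (median -0.35). The calls of Gys2, Hk2, Pdk1 and Acmsd were each lost without control pool 1, 3 or 4.

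Of 27 acute-phase genes, 2 rose. Lcn2, a siderophore-binding protein of the acute-phase response, was at 223, 48.6, 152 and 152 CPM against 7.74, 11.1 and 7.69 CPM (4.02 ± 0.49, adjusted p = 0.0130). Orm2, an orosomucoid, was at 118, 19.6, 43.3 and 101 CPM against 7.26, 10.5 and 9.69 CPM (2.94 ± 0.58). Both were lowest in pool 2, and both calls were lost without control pool 1, 3 or 4. The list's per-pool medians were 1.25, 0.14, 0.01 and 0.18, highest in pool 1.

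Sex-biased liver genes were mixed. Of 17 tested female-biased genes, 2 rose and 2 fell, and the falls were Acot3 and Acot4 again. Sult2a7, a sulfotransferase, was at 35.0, 95.1, 22.1 and 20.2 CPM against 2.50, 4.30 and 1.81 CPM (3.90 ± 0.65, adjusted p = 0.0307), and the oestrogen sulfotransferase Sult1e1 rose by 3.75 ± 0.81. None of 25 male-biased genes was called, with per-pool medians of 0.47, -0.55, -0.31 and 0.30 and control medians of -0.08, -0.44 and 0.48. Beside these, the Y-linked Ddx3y was at 31.0, 62.7, 46.1 and 47.5 CPM against 65.0, 78.4 and 72.8 CPM. The X-inactivation RNA Xist was at 2.65 to 3.60 CPM against 2.38 to 2.50 CPM. Their part in the sex-biased genes was not tested. Of the 4 calls, 1, 0 and 0 stood without control pool 1, 3 or 4.

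The remaining lists held few or no calls. The 20 tested imprinted genes had a median of 0.60. In 9 of them all Tg-labelled pools lay above every control, where 12.2% of all genes did. Meg3 was the 1 called of 20 imprinted genes, and its call was lost without control pool 1, 3 or 4 and stood without Tg-labelled pool 2; without another Tg-labelled pool it did not pass the filter on low counts. No call was made among 23 xenobiotic genes, 22 endoplasmic reticulum chaperone genes, 33 splicing factors or 37 ribosomal protein genes, with medians of -0.26, -0.31, -0.13 and -0.03. Immediate early genes, 19 tested and none called, differed more among controls (medians -0.03, 0.73 and -0.94) than among Tg-labelled pools (-0.02 to 0.23).

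Counts of calls in several lists rose when Tg-labelled pool 1 was left out, as did calls over all genes (924 of 14107, against 385 of 14315). Without it, 7 clock genes (6 lower), 8 antigen presentation genes, 7 PPARalpha targets, 4 interferon-stimulated genes and 5 endoplasmic reticulum chaperone genes, the last all lower, were called, against 3, 5, 4, 1 and 0 with all 4 pools. For the same 5 lists DESeq2 called 13, 10, 9, 8 and 5, and over all genes 1508. Without Tg-labelled pool 2 or 4, 6 and 1 clock genes and 7 and 3 antigen presentation genes were called.

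**Figure D2:**
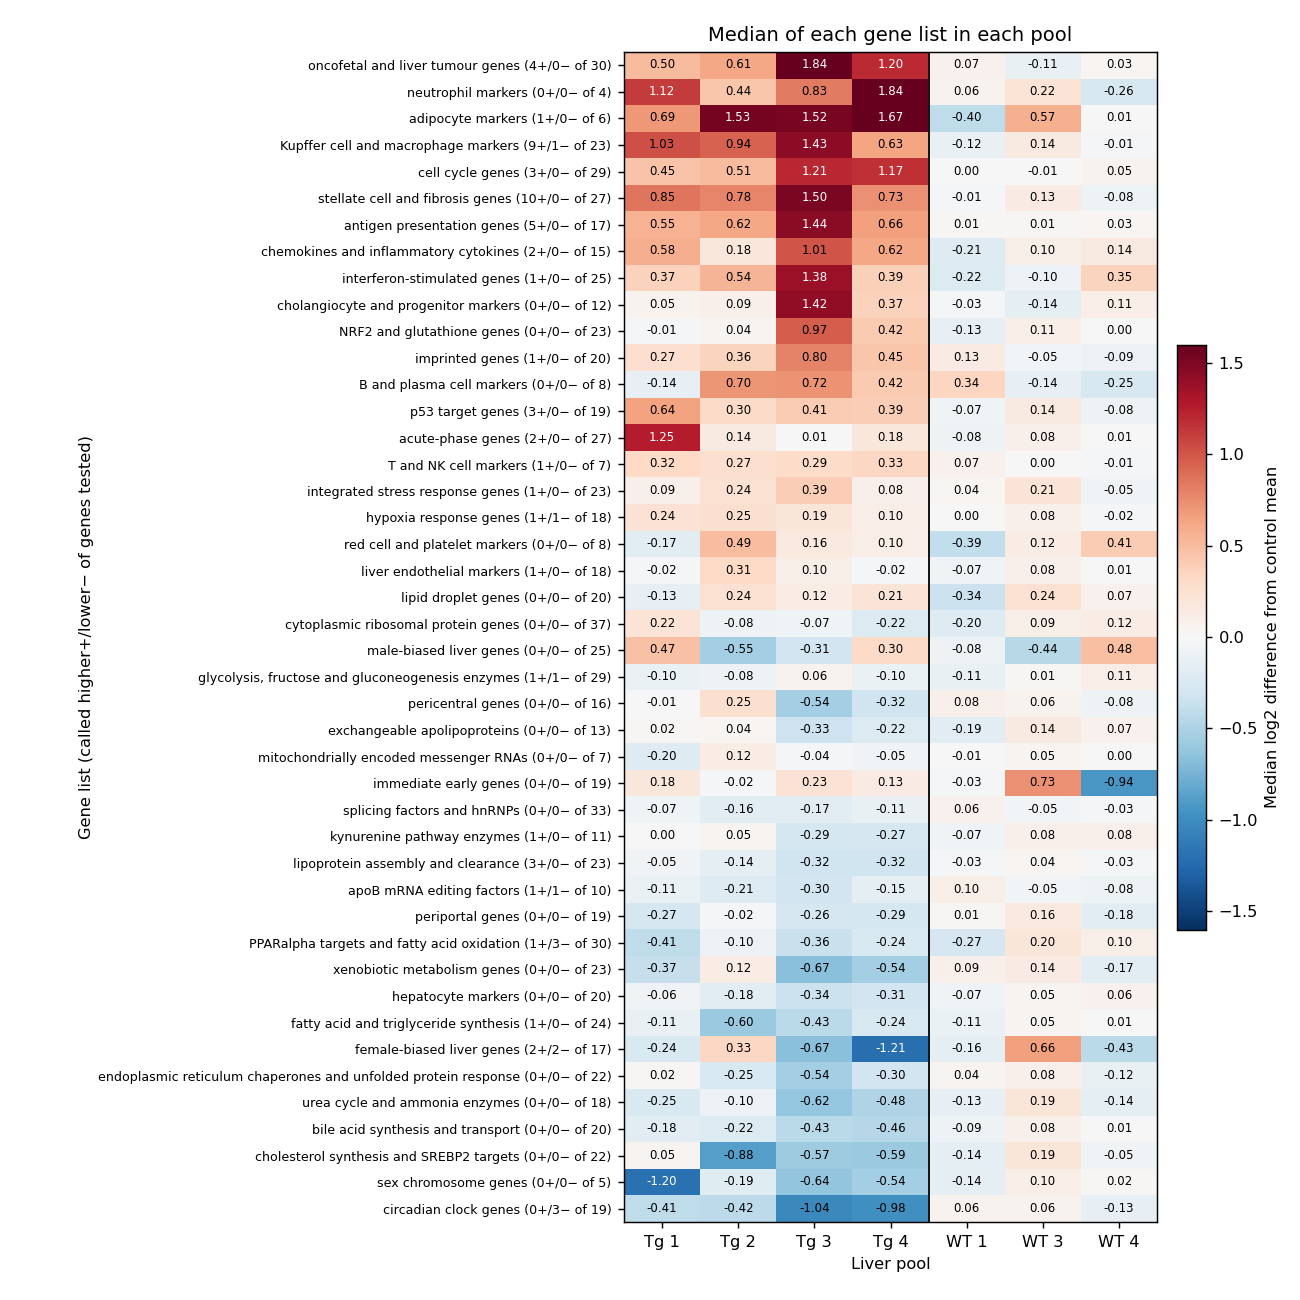
Median log2 difference from the control mean for 44 gene lists with at least 4 tested members, in each of the 7 pools. The text after each list gives the genes called higher and lower of those tested; control medians include the pool itself in the mean, red is higher, blue is lower, and pool 3 is the highest for the stellate (1.50), macrophage (1.43) and antigen presentation (1.44) lists.

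Genes that stood out in 1 Tg-labelled pool differed between the pools. In pool 1 the serum amyloids Saa1 and Saa2 were at 441 and 225 CPM, against at most 31.1 and 9.94 CPM in the other 6 pools, and Prtn3, a neutrophil granule protease, at 41.9 against at most 2.10 CPM. Other hepatocyte acute-phase products were also highest there, such as haptoglobin (Hp) at 7150 CPM against at most 3067 CPM. In pool 2 Cyp2b13 was at 24.8 CPM against at most 7.58 CPM, and Sult2a7 was highest there as given above. Pool 3 had Dmbt1, a mucosal scavenger protein, at 164 CPM against at most 5.17 CPM, and Slc7a11 at 148 CPM against at most 6.75 CPM. Pool 4 had Ptgds, a prostaglandin D synthase, at 184 CPM against 19.9 CPM in pool 3 and at most 2.39 CPM elsewhere. The imprinted gene Peg10 was at 10.8 CPM there against at most 3.28 CPM, and Tmem71 at 6.95 against at most 2.11 CPM. Of the 10 genes plotted, chosen for their values in 1 pool, Sult2a7 was the 1 called between groups.

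**Figure D3:**
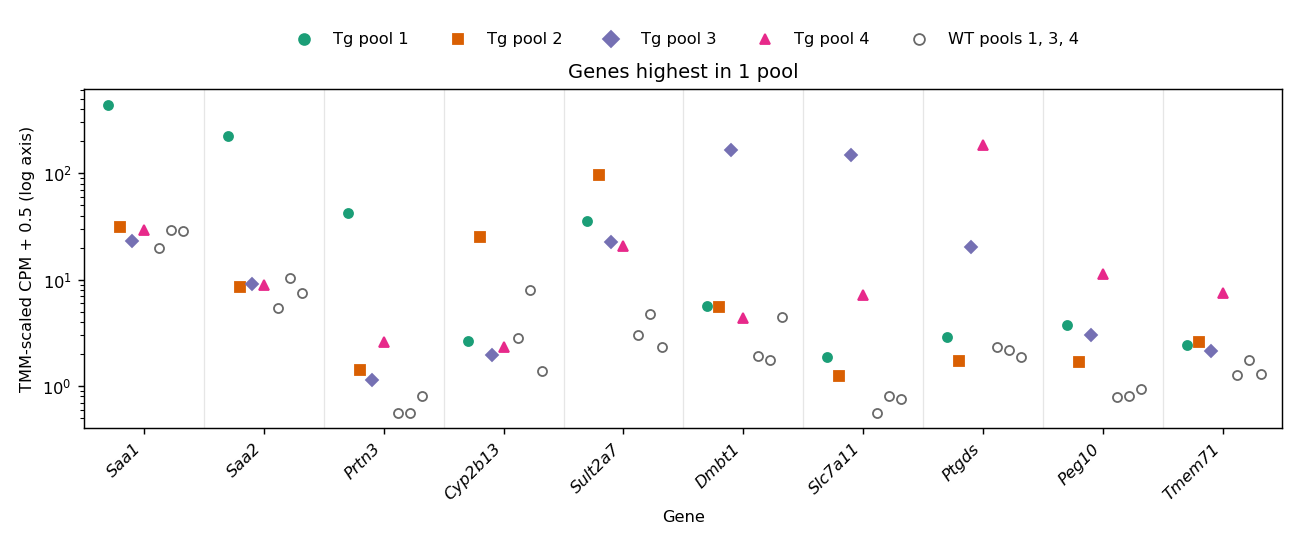
Levels of 10 genes with the widest gaps above all other pools (2 or 3 for each Tg-labelled pool), as TMM-scaled CPM plus 0.5 on a log axis. Each gene is highest in 1 filled symbol, such as Saa1 in pool 1 (441 CPM) and Ptgds in pool 4 (184 CPM); other filled symbols also lie above the open control circles for several genes, such as Sult2a7, Slc7a11 (pool 4 at 6.75 CPM), Peg10 (pool 1 at 3.28 CPM) and Ptgds (pool 3 at 19.9 CPM).

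Levels were also compared by whole chromosome. For each pool the median was taken over a chromosome's genes of log2(CPM + 0.5) minus the mean of the control pools. It covered those of the same 11699 genes that lie on 20 chromosomes, 1 to 19 and X. Chromosome Y, mitochondrial genes and chromosomes with fewer than 20 such genes were left out. In control pools, each set against the mean of the other two, all 60 medians lay between -0.04 and 0.04. In Tg-labelled pools 18 of 80 medians were beyond 0.1 in either direction: 1 in pool 1, 1 in pool 2, 7 in pool 3 and 9 in pool 4. Group means were then compared for each chromosome. The exact permutation test ran over 35 splits of the 7 pools (two-sided, smallest possible p 0.0286). By it 0 of 20 chromosomes reached p below 0.05, and the lowest p was 0.0857 for chromosome 13 (adjusted p = 0.643). With so few splits, an adjusted p below 0.05 would need many chromosomes at the smallest possible p. A test of group means also cannot decide on shifts of single pools.

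Chromosome 14 had the largest shift. Over its 396 genes the medians were 0.00, -0.59, -0.42 and -0.31 in pools 1 to 4, and 50.0%, 88.1%, 78.8% and 77.5% of its genes were below the control mean. Pool 1 was level with the controls, and pools 2 to 4 were each lower. In pool 2 this was the 1 chromosome past 0.1, since its other medians ran from -0.04 to 0.01. On chromosome 16 the shifted pool was pool 1. Its 375 genes had a median of -0.30 in pool 1, with 78.9% below the control mean, and -0.02, 0.07 and 0.10 in pools 2 to 4.

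Pools 3 and 4 shared further shifts. Beyond 0.1 in both were chromosomes 9 (-0.20 and -0.12), 12 (-0.25 and -0.13), 13 (-0.19 and -0.14), 14 and 15 (0.19 and 0.14), each with the same sign. These pools share their control samples, so the matching signs are given as values only. Pool 3 alone was past 0.1 on chromosomes 6 (-0.11) and 8 (-0.13). Pool 4 alone was past it on chromosomes 1 (0.11), 2 (-0.10), 4 (-0.13) and 18 (0.18).

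**Figure D4:**
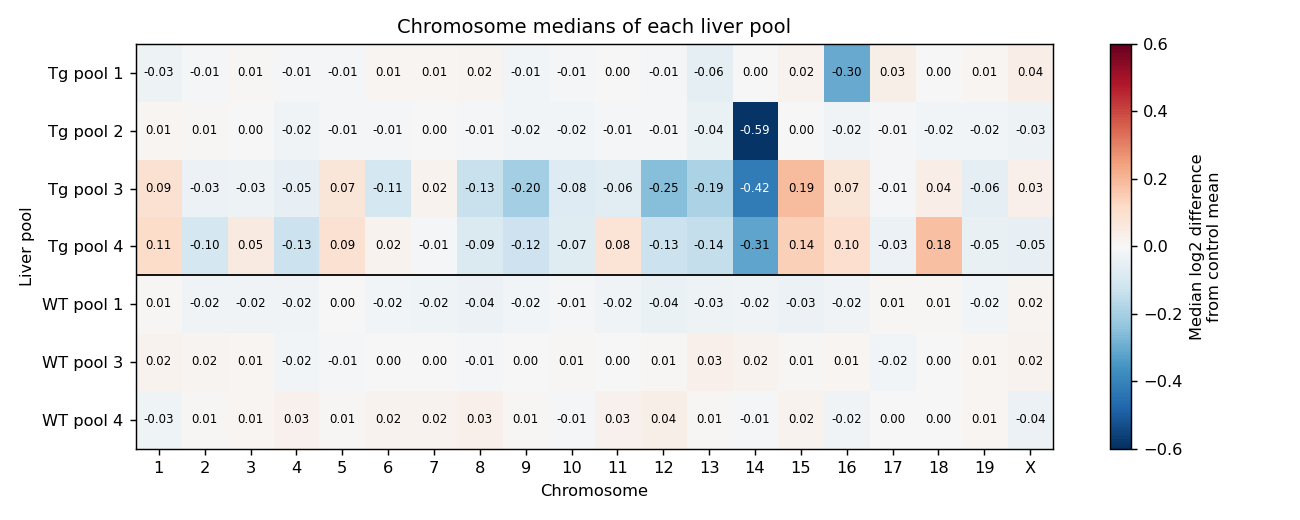
Median log2 difference of each chromosome's genes from the control mean, in each liver pool; each control pool is compared with the mean of the other two. Control rows stay between -0.04 and 0.04, while chromosome 14 is low in Tg-labelled pools 2 to 4 (-0.59, -0.42 and -0.31) and chromosome 16 in pool 1 (-0.30).

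The shifts mostly ran along whole chromosomes. With chromosome 14 cut into 4 runs of 99 genes in map order, the medians were -0.53, -0.61, -0.59 and -0.59 in pool 2 and -0.44, -0.40, -0.43 and -0.41 in pool 3. Pool 4 was less even there, at -0.15, -0.30, -0.44 and -0.39. On chromosome 16 pool 1 had -0.28, -0.26, -0.34 and -0.38. On chromosome 9 all 4 runs were lower in pool 3 (-0.16 to -0.22) and pool 4 (-0.09 to -0.17), and on chromosome 15 all 4 were higher (0.11 to 0.24 and 0.10 to 0.18). Chromosome 8 differed: its first run of genes was at 0.02 and 0.01 in pools 3 and 4, and the other 3 were at -0.16 to -0.20 and -0.11 to -0.14.

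**Figure D5:**
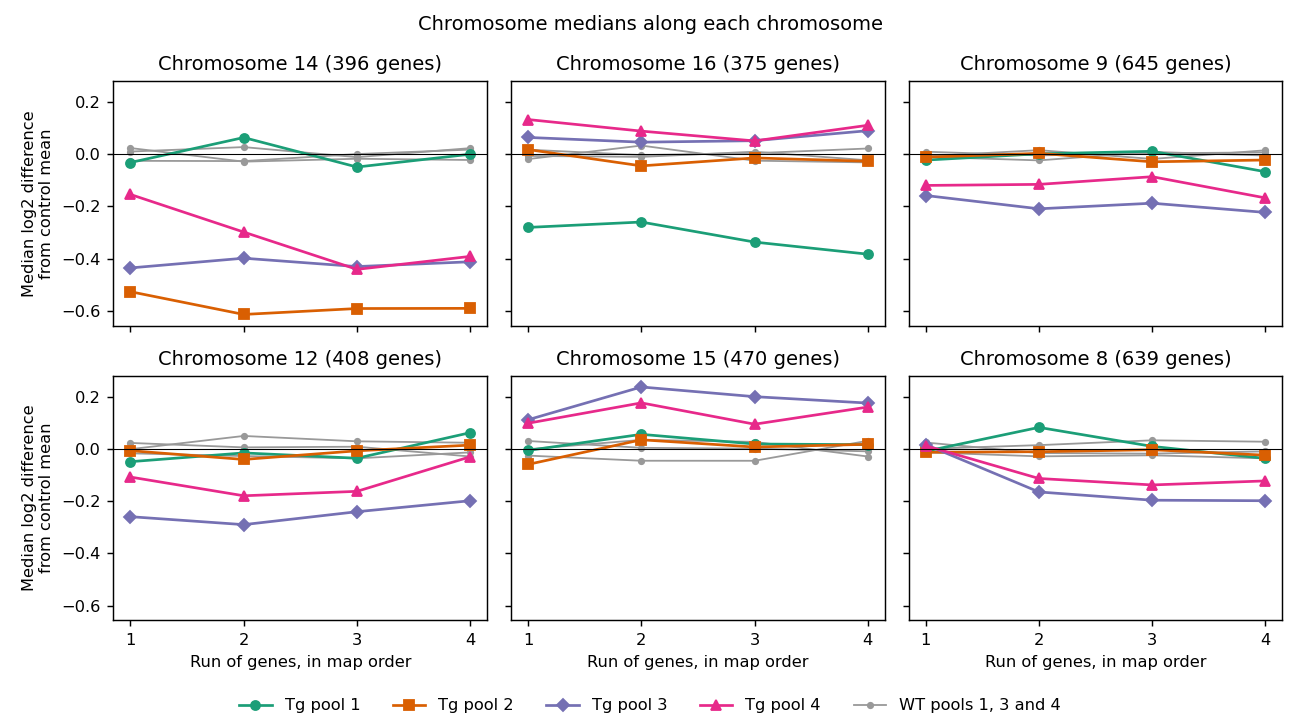
Median log2 difference from the control mean in 4 successive runs of the genes of 6 chromosomes, in map order. Coloured lines are Tg-labelled pools and grey lines the control pools; the lines of shifted pools stay on 1 side of 0 across chromosomes 14, 16, 9 and 15, while on chromosome 8 pools 3 and 4 start near 0 (0.02 and 0.01) and then drop.

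The most abundant genes of the 3 most shifted chromosomes varied between pools. On chromosome 14, Mat1a (the liver's S-adenosylmethionine synthetase) was at 3511, 2233, 1401 and 1637 CPM against 3007, 4886 and 3120 CPM. Itih4, an acute-phase protein, was at 4794, 1916, 1403 and 2136 CPM against 2557, 2295 and 2150 CPM, and the RNase P RNA Rpph1 was at 1270 to 2870 CPM against 2869 to 3048 CPM. On chromosome 16, Ahsg (fetuin-A) was at 6047, 7172, 6296 and 7036 CPM against 7056, 7989 and 7170 CPM, lowest in pool 1. Kng1 (kininogen) was at 1339 to 1603 CPM against 1519 to 1741 CPM and Hrg at 988 to 1541 CPM against 1235 to 1342 CPM, and for both pool 3 was lowest. On chromosome 12, Apob is given above, Serpina3k was at 2628 to 4548 CPM against 4542 to 5555 CPM, and Serpina1e at 2411 to 4377 CPM against 1523 to 4697 CPM. None of these 9 genes was called.

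Chromosome 14 held 14 of the 89 called falls, 2.98% of its 470 tested genes beside 0.622% of all genes. Examples, named after their values were seen, were Pcca, a propionyl-CoA carboxylase subunit (50.1, 38.6, 35.3 and 41.5 CPM against 75.1, 88.9 and 83.9 CPM), and Ndrg2 (746 to 1094 CPM against 1479 to 1768 CPM). Pool 1, whose chromosome 14 median was 0.00, was below every control for both. That holds for every called fall, since none of the 385 called genes overlapped between groups. With each pool's chromosome medians taken out before the test, 1 of these 14 falls and all 9 rises on chromosome 14 were still called.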

How the data were processed

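The deposited unit is the raw count of reads per gene (41388 genes). Per the submitters' processing notes, the tools the authors named were bcl2fastq for base calling, STAR 2.0.4b for alignment to GRCm38 and featureCounts 1.45 from Subread for counting. How strand and multiply aligned reads were treated is not given in the sources used here. Symbols were matched for 40254 identifiers from GENCODE vM21. The labels give 3 pools per group in one place and 4 for livers in another; 4 files per group exist.

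Low genes were removed by edgeR's filterByExpr at its minimum count of 10 and minimum total of 15. Library factors were then estimated by TMM, and each gene was tested two-sided with the quasi-likelihood F-test (edgeR 4.0.16, under R 4.3.3). A gene was called at a Benjamini-Hochberg adjusted p below 0.05. Changes are log2 Tg-labelled over control ± SE. On data simulated for 4 against 3 pools, 51% of 2-fold and 96% of 4-fold changes were recovered (100 genes each among 14315). Of the calls, 8.70% were false. The changed genes averaged at least 1 CPM in control pools, and each gene had the same spread in both groups. No shift of a pool or chromosome was simulated. The Tg-labelled pools differed more among themselves, and several named rises lie below that level in control pools, so these rates do not cover them. The 46 gene lists hold 866 symbols, of which 862 were matched. The lists, the naming rule and the choice of pools were written with earlier results on these data known. The naming rule took A1cf, the 12 largest called rises and falls without overlap at a mean of at least 2 CPM, up to 4 members of smallest p per list, 3 genes per Tg-labelled pool and 3 per most shifted chromosome; not all are printed, and some genes are not reported here. Skeletal muscle markers are in no count, because Acta1 chose the pools (5 passed the filter and 0 were called). Alternatives were another scaling (RLE), DESeq2 1.42.0, no filter, other sets of pools, a replicate block, centring by chromosome and, chosen after seeing the data, limma 3.58.1 with 1 spread per group and another reference for chromosome medians.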

Additional observations from a re-analysis of the deposited data

Results flagged for a closer look

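In 13 of 257 sets of 4 Tg-labelled values (log2 levels of named genes other than those chosen for being highest in 1 pool, list medians and chromosome medians), 1 pool lay apart from the others by Dixon's test at the 95% level. Chance gives about 1 in 20 such sets. Pool 1 stood apart for Mup-ps20 (1.00 CPM, low), Cideb (61.0 CPM), the acute-phase list (median 1.25) and the adipocyte list (0.69, low). Pool 2 stood apart for Apobec1 (13.8 CPM), Rbm47 (176 CPM), Syvn1 (67.9 CPM), Acmsd (28.9 CPM), Mup21 (56.8 CPM) and the periportal list (-0.015). For Rbm47, Apobec1 and Acmsd, pool 2 was the pool nearest to the controls. Pool 3 stood apart for the stellate (1.50), antigen presentation (1.44) and glycolysis (0.061) lists. Pool 4 stood apart in none of these sets.

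Control pool 2, which entered no comparison here, held Acta1 at 778 CPM and 20 muscle markers summing to 5914 CPM, against 89.6 to 176 CPM in the 7 pools used.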

How the results depend on the processing

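Against 385 called genes, DESeq2 called 1508 of the 25108 genes it was given (384 of the 385 among them), edgeR with no filter called 698, a spread shared over all liver groups gave 1720, and adding control pool 2 gave 188. Leaving out 1 pool gave 12 to 924. Called list members, 61 in the main analysis, numbered 208, 115, 203 and 29 under the same 4 settings and 0 to 136 with 1 pool left out. RLE scaling, centring by chromosome and limma called 356, 389 and 299 genes. A1cf had a log2 change of -0.77 to -0.60 with 1 pool left out. Same-numbered pools did not vary together (correlations -0.04, -0.04 and 0.04). A replicate block, tried all the same, called 419 genes and left A1cf at -0.69 (adjusted p = 0.0678).

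The 18 chromosome medians beyond 0.1 became 15 to 20 under other filters, scalings, pseudocounts and control pools, and 0 chromosomes reached p below 0.05 by permutation under RLE scaling or with the mean of all 7 pools as reference. The cause of these changes was not tested. Genes that were not called changed sign in places. With limma Itih4 was -0.015 and Serpina1e 0.025. With the replicate block Cyp2b13 was -0.60 and Serpina1e 0.16. With control pool 2, Ccl5 was -0.085, Hba-a1 -0.0056, Cyp2a4 -0.29, Cyp2b13 -3.27, Itih4 -0.14 and Serpina1e 0.31. With 1 pool left out Itih4 ran from -0.36 to 0.34, Cyp2b13 from -0.96 to 2.23, Hrg from -0.22 to 0.0023 and Serpina1e from -0.47 to 0.13. Depth limits the genes with few control reads, such as Aqp7 with 1.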

Other observations

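Chromosome 19, which carries A1cf, held 9 called falls and 7 called rises among 495 tested genes (1.82% and 1.41%, beside 0.622% and 2.07% of all genes), while its medians stayed between -0.06 and 0.01. Apart from A1cf, the falls included Nmrk1, a nicotinamide riboside kinase, at 13.7 to 19.5 CPM in Tg-labelled pools against 35.3 to 39.3 CPM in control pools (-1.11 ± 0.13, adjusted p = 0.0130). Cyp26a1, the enzyme that degrades retinoic acid, was at 20.9, 12.9, 11.3 and 13.6 CPM against 33.4, 38.6 and 28.7 CPM (-1.20 ± 0.21, adjusted p = 0.0343). Rises on this chromosome were Scd2, Mpeg1 and Chrm1, given above, with Il33 (1.04 ± 0.21), Myof, Blnk and Csf2ra. These genes were named after their values were seen.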
